A study of Rattus norvegicus with 9 samples.

Results

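The AP-1 and EGR immediate-early genes examined here were the 10 genes Fos, Fosb, Fosl2, Jun, Junb, Jund, Egr1, Atf3, Nr4a1 and Ier2, taken by gene symbol from the 41801 genes listed for single cells of rat tibial osteotomy tissue. All 10 were found by symbol, and all 10 passed the filter on low counts in every cell population tested. Each is described by itself, across cell types and across libraries. Sprague-Dawley rats of 6 to 8 weeks, none labelled as carrying a transgene, had a circular osteotomy of 3 mm cut in the proximal tibia and a full-thickness skin wound of 4 mm on the top of the hind foot, in both arms. In the TO arm nothing further was applied, and in the TOE arm radial extracorporeal shock waves, pressure pulses delivered through the skin, were given at the cut bone on day 2 and again on day 4. Cells of the osteotomy site were profiled by droplet-based 3′ single-cell RNA sequencing in 8 libraries, 1 for each of the conditions TO 2d 0h, TO 2d 4h, TO 4d 4h, TO 4d 24h, TOE 2d 4h, TOE 2d 24h, TOE 4d 4h and TOE 4d 24h, named by the arm, the day and the hours since the session or its matched time. TO 2d 0h was taken before any session, and rats of the TOE 4d conditions had received both sessions. TO 2d 24h was not analysed here. The series describes 9 rats and 9 labelled samples without saying which rats went into which library, so a condition was 1 sample.

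AP-1 is a pair of proteins, in its common form a Fos family member (Fos, Fosb, Fosl2) bound to a Jun family member (Jun, Junb, Jund), that binds DNA as a dimer through a leucine zipper. Immediate-early genes are switched on by signals such as growth factors, stress and mechanical load without new protein synthesis, and the transcripts of many of them are short-lived. Serum response factor with its ternary complex partners acts through CArG boxes, CREB and ATF proteins act through the palindrome TGACGTCA, and EGR1 is a zinc finger protein that binds the GC-rich site GCGNGGGCG. Jund is the family member with steady expression in many resting cells, and Fosl2 and Fos have known roles in bone and osteoclast formation. The same genes are also known to respond to the enzymes, warmth and handling of tissue dissociation, and in these libraries a response before and after dissociation cannot be told apart.

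Promoter sequences are shown for Jund and Fosl2, the members called in the comparison of hours, and for Ier2, which carries the same palindrome as Jund and was called only in alternative fits, to let the sites of the upstream factors be seen. They span 250 bases before to 50 after the RefSeq start in the rat assembly GRCr8, and 7 of the 10 members had an entry. Capitals mark the matches to TGACGTCA or GCGNGGGCG on either strand, with N standing for any base. Jund, chr16:18769722-18770021, minus strand, carries the CREB and ATF palindrome at -221 to -214 and GCGNGGGCG at -139, -76 and -31 from the start. Ier2, chr19:40399123-40399422, plus strand, carries the palindrome at -66 to -59. Fosl2, chr6:30039220-30039519, minus strand, carries GCGNGGGCG at -249 and at 8.
Jund: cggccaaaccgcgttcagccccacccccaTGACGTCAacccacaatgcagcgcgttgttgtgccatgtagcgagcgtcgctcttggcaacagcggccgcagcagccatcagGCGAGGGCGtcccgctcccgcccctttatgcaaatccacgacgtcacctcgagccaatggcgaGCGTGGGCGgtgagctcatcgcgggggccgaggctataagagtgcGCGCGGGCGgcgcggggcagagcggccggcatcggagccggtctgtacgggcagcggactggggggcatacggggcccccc
Ier2: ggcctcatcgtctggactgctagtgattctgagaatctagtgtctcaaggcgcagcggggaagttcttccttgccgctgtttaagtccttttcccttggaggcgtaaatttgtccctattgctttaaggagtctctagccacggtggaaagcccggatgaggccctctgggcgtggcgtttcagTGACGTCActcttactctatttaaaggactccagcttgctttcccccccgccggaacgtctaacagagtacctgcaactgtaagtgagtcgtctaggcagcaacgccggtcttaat
Fosl2: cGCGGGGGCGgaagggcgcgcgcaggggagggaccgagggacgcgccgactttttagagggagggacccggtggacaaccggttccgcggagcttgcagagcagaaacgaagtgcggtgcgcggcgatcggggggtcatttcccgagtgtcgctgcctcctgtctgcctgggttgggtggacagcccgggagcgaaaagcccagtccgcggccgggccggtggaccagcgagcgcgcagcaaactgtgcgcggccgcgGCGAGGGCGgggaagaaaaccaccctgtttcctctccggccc
Of 27457 rat promoters of the same length, 1.91% held TGACGTCA, 5.29% GCGNGGGCG, 7.33% the AP-1 site TGANTCA and 1.64% a CArG box, each searched on both strands. Egr1 had 2 CArG boxes, at -105 to -96 and -83 to -74, Nr4a1 had 1 match to GCGNGGGCG, and Fosb and Junb had no match to any of the 4 motifs. These matches are letters in a window and do not show binding.

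The 8 libraries held 12451 to 17187 barcodes and 95954800 to 144146202 unique molecular identifiers (UMIs, counts of captured transcripts), and 112907 cells stayed after filtering, with a median of 4444 to 5562 UMIs per cell. Pairs of libraries shared 40 to 110 barcodes. Clustering gave 40 clusters, and those that could be named from marker genes formed 14 classes. B-cell-like cells were 57.8%, neutrophil-like 13.6%, monocyte-like 10.0% and mesenchymal-like 1.16% of cells (1314 cells, 62 to 511 per library). A further 4387 cells (3.885%, or 1.588 to 8.255% of a library) lay in clusters left unnamed. They are part of the whole library, but the class levels and class orders below leave them out. Summed markers of mesenchymal cells stood at 1656 to 12110 CPM (UMIs of a gene per 1e6 UMIs of the cells summed), against 2.11 to 35.2 for chondrocytes and 4.43 to 11.7 for skeletal muscle, and of 10 macrophage markers Marco was at 0. The TOE 4d 24h library stood apart: erythroid-like cells were 0.643% of its cells against 2.76 to 5.97% in 6 other libraries and 17.9% in TO 2d 4h, and its neutrophil markers summed to 73469 CPM against 21122 to 35977. Levels below are CPM of the summed UMIs of a class in a library, given where a class had at least 20 cells in that library, which was so for 13 classes. Intervals are exact 95% intervals that cover counting error only.

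The Fos family was highest in stromal, endothelial and myeloid classes and low in B-cell-like and erythroid-like cells. Fos, the founding member of the family, had a median over libraries of 1878 CPM in mesenchymal-like cells (range 1048 to 2454) and 1634 in endothelial-like cells (1328 to 2402). It fell in order through macrophage-like (1177), monocyte-like (617, range 312 to 1534), neutrophil-like (281, range 149.8 to 674) and B-cell-like cells (106, range 67.1 to 199.9) to erythroid-like cells (45.7, range 25.4 to 109.6). Each class overlapped its neighbour in this order, while the mesenchymal-like range lay above the whole neutrophil-like and B-cell-like ranges. Because Fos was low in the commonest cells, B-cell-like cells held 42.2% of all UMIs but 12.2% of Fos UMIs on average over libraries, and mesenchymal-like cells held 4.60% of all UMIs but 18.95% of Fos UMIs (5.71 to 48.4%).

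Fosb, which forms the same dimers as Fos, was likewise led by mesenchymal-like cells (median 907 CPM, range 677 to 1457), followed by endothelial-like (771) and dendritic-cell-like cells (705), with 239.9 in B-cell-like and 67.7 in erythroid-like cells. Fosl2, the Fos-related antigen that lacks the strong activation domain of Fos, had another order. Osteoclast-like cells led with 278 CPM (172 to 359) and endothelial-like cells followed with 237. Neutrophil-like (142), monocyte-like (135) and mesenchymal-like cells (116) lay close together and overlapped. In B-cell-like cells Fosl2 ran from 3.49 to 10.0 CPM, below every library of those 5 classes.

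Within the Jun family the 3 genes had 3 different leading classes. Jun, the main partner of Fos, was highest in neutrophil-like (median 1793 CPM, range 954 to 2439) and mast-cell/basophil-like cells (1698, range 989.5 to 2174), whose ranges overlapped. Mesenchymal-like cells stood at 1109, B-cell-like at 807 (356 to 1430), monocyte-like at 497 and osteoclast-like cells at 345. Junb, a weaker activator than Jun, was led by macrophage-like cells (808, range 633.5 to 1219), with dendritic-cell-like (707), endothelial-like (694), T/NK-cell-like (669) and mesenchymal-like cells (663) inside that range, and B-cell-like (267) and erythroid-like cells (55.1) at the low end. Jund was led by mast-cell/basophil-like cells (1427, range 867 to 2500), with lower medians in B-cell-like (982, range 571 to 2484), T/NK-cell-like (826), monocyte-like (496) and mesenchymal-like cells (479, range 299.7 to 1522), and the ranges of the last 4 overlapped one another. B-cell-like cells held 54.5% of Jund UMIs on average, against 4.24% of Fosl2 UMIs.

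Of the other 4 members, Egr1 and Atf3 were led by mesenchymal-like cells and Nr4a1 and Ier2 were not. Egr1, the early growth response zinc finger factor, stood at 731 CPM in mesenchymal-like cells (409.7 to 1174), 361 in neutrophil-like cells (252 to 602), 97.8 in B-cell-like cells and 74.9 in monocyte-like cells (51.1 to 270.3), and the first pair of ranges overlapped. Atf3, a stress-responsive bZIP factor that can act as a repressor, stood at 549 in mesenchymal-like cells (211 to 1846), 522 in endothelial-like, 494 in macrophage-like, 182 in monocyte-like, 53.7 in neutrophil-like and 33.2 in B-cell-like cells (13.8 to 59.8). Nr4a1, an orphan nuclear receptor induced by antigen receptor and inflammatory signals, was highest among the named classes in T/NK-cell-like cells (228, range 62.02 to 407), with 212 in HSPC-like, 196 in monocyte-like, 133.9 in B-cell-like, 63.9 in neutrophil-like and 21.2 in erythroid-like cells. Ier2, a small nuclear immediate-early protein, was led by neutrophil-like cells (331, range 257 to 486), with 294 in endothelial-like, 226 in monocyte-like, 207 in mesenchymal-like (102.9 to 852), 161 in B-cell-like and 70.8 in erythroid-like cells.

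Clusters inside a class also differed in the members. In neutrophil-like cells the cluster led by Hcar2 (4711 cells) had 1144 CPM of Fos, 1326 of Fosb, 1633 of Junb and 780.2 of Egr1. The cluster led by RatNP-3b (2963 cells), a neutrophil defensin gene, had 145 of Fos, 92.1 of Fosb, 236 of Junb and 226 of Egr1, but the higher Jun level, 2265 against 1443. At Leiden resolution 2 a cluster led by RatNP-3b was named granulocyte-monocyte progenitor-like, so the Jun level of the neutrophil-like class depends on that boundary. Monocyte-like cells also split: the cluster led by Mnda (4260 cells) had 1578 CPM of Fos, 1030 of Jun and 225 of Egr1, the cluster led by Cd14 (2812 cells) had 358, 445 and 50.05, and the cluster led by LOC120100774 (4221 cells) had 232, 261 and 45.1. These clusters were built from the same cells, with the members and the listed pathway genes left out of the variable genes. The values are descriptions with no test.

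Per cell, after each cell of at least 2000 UMIs had been thinned to that number, Fos was seen in 65.5 to 89.0% of mesenchymal-like cells in a library, with a median of 76.9%, and in 17.0 to 36.0% of all cells. Without thinning the corresponding ranges were 77.0 to 98.2% and 31.4 to 56.3%. Jun, highest in neutrophil-like cells by summed CPM, was seen in 44.8 to 71.7% of them after thinning. The thinned share was 58.1 to 87.0% in mast-cell/basophil-like cells and above the neutrophil-like share in every library. In mesenchymal-like cells it was 50.6 to 92.0%, above the neutrophil-like share in every library but TOE 4d 4h. B-cell-like cells were above it in TO 2d 0h, TO 4d 24h and TOE 2d 24h. The order of classes by summed CPM of Jun thus did not hold per cell. The erythroid-like class, which served as the reference for free RNA, had a median of 7.47% for Fos (0 to 16.3% in 7 libraries and 24.9% in TO 2d 4h), 59.3% for Jund (31.8 to 77.6%), 1.48% for Fosl2 and 4.27% for Nr4a1. In TO 2d 4h, 1991 of the 2695 erythroid-like cells lay in a cluster led by Sync, with no erythroid marker among its 10 leading genes, and the class had a median of 2025 UMIs there against 4918 or more elsewhere. In TOE 4d 24h the class had 78 cells, with a median of 32766 UMIs against 4918 to 9059 in the libraries other than TO 2d 4h. At Leiden resolution 2, 74 cells of TOE 4d 24h lay in a cluster led by Car1, and 0 in the erythroid-like clusters led by Sox6, Tmcc2 and Hba-a3. Its shares, 0% for Fos and 31.8% for Jund, are thus a weak reference. Jund was seen in a median of 49.7% of mesenchymal-like cells, which is below the erythroid-like reference, so its shares are not read as a difference between classes. Median UMIs per cell in mesenchymal-like cells were 18322 to 41631, which is why thinned shares are given. Nr4a1 was seen in 11.6 to 64.6% of the thinned cells of unnamed clusters in a library (43 to 271 cells). That was above its share in T/NK-cell-like cells (3.33 to 42.7%) in every library.

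Members were seen together to different degrees in the libraries. A thinned cell held 2.13 of the 10 members on average in TOE 2d 4h and 2.15 in TOE 4d 24h, against 2.95 to 3.94 in the other 6 libraries. Cells with none of the 10 made up 20.5% (interval 19.9 to 21.2%) and 20.1% (19.4 to 20.9%) of those libraries and 1.95 to 7.86% of the others, or 8.56%, 8.36% and 1.20 to 3.08% without thinning. Cells too shallow to be thinned, 1311 to 2618 per library, were left out. Jund, 1 of the 10, was seen in 40.3% and 31.8% of erythroid-like cells of those 2 libraries and 48.3 to 77.6% elsewhere. The part of free RNA in these counts was not tested. The same 2 libraries were lowest within B-cell-like cells, with 1.86 and 1.59 members per cell. Jun was seen in 55.0% of Fos-positive and 31.9% of Fos-negative cells of TOE 2d 4h, and in 60.2% and 29.6% of those of TOE 4d 24h. Erythroid-like cells of these libraries held Jun in 22.1% (interval 18.7 to 25.9%) and 25.8% (15.8 to 38.0%), and the latter interval included the Fos-negative share, which is not read as expression there. The erythroid-like cells of TOE 4d 24h, 66 after thinning, were the deeper ones described above. Their Jund and Jun shares are therefore a weak reference. The Jun share was higher among Fos-positive cells in each of the 8 libraries, over cells of all classes together.

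The first comparison across libraries asked how the members differed with the hour, 4 h against the other times (the baseline and 24 h), over both arms. An additive model of arm, day and hour was fitted to the summed UMIs of the 8 libraries with edgeR's quasi-likelihood test and Benjamini-Hochberg adjustment over all genes, in the whole library and in 4 classes. It has 4 residual degrees of freedom from libraries of different conditions, so its p-values hold only if the 3 effects add up. Jund fell at 4 h in neutrophil-like cells and Fosl2 rose at 4 h in monocyte-like cells, and no other member was called in any of the 5 populations. That was 1 of 10 members in each class. Of all genes, 4.98% were called lower and 3.78% higher in neutrophil-like cells, and 4.79% and 5.50% in monocyte-like cells. The number of members called was thus near the share over all genes.

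In neutrophil-like cells Jund stood at 565 CPM in TO 2d 4h, 742 in TO 4d 4h, 450.1 in TOE 4d 4h and 353 in TOE 2d 4h. At the other times it was 894 in TO 2d 0h, 1849 in TO 4d 24h, 909.7 in TOE 2d 24h and 634 in TOE 4d 24h, so that the groups overlapped only by TOE 4d 24h lying under TO 4d 4h. The difference was -1.21 on the log2 scale (standard error 0.25, edgeR adjusted p = 0.0264), a fold of 0.431. Of 14328 genes tested in neutrophil-like cells, 4.98% were called lower and 3.78% higher at 4 h. The call was lost when TO 2d 4h, TO 4d 4h, TO 4d 24h, TOE 2d 4h, TOE 2d 24h or TOE 4d 4h was left out (edgeR adjusted p between 0.0665 and 0.108, log2 differences from -1.40 to -0.94 over all 8 omissions) and kept without TO 2d 0h or TOE 4d 24h. The thinned Jund share of neutrophil-like cells was 45.7 to 61.7% at 4 h and 58.8 to 86.35% otherwise. In the erythroid-like reference it was 40.3 to 72.1% and 31.8 to 77.6%. The part of free RNA in the Jund difference was not tested.

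Fosl2 in monocyte-like cells stood at 173 CPM in TO 2d 4h, 180.0 in TO 4d 4h, 179 in TOE 4d 4h and 146 in TOE 2d 4h. The other libraries were lower, with TOE 2d 24h and TOE 4d 24h at 123, TO 2d 0h at 100.1 and TO 4d 24h at 85.2, so the groups did not overlap. The difference was 0.68 on the log2 scale (standard error 0.15, edgeR adjusted p = 0.0358), a fold of 1.60, where 5.50% of the 15624 genes tested were called higher and 4.79% lower. Leaving out TO 2d 0h, TO 2d 4h, TO 4d 4h, TO 4d 24h, TOE 2d 24h or TOE 4d 4h took the adjusted p to between 0.0504 and 0.128, and with the hour as 3 levels it was 0.127. The monocyte-like clusters changed with the hour too: the Cd14-led cluster (105.0 CPM of Fosl2) had 792, 901 and 1075 cells in TO 2d 0h, TO 4d 24h and TOE 2d 24h against 5 to 19 in the others, and the LOC120100774-led cluster (172 CPM) had 653 to 1313 cells in the 4 h libraries against 3 to 59. The part of this in the Fosl2 difference was not tested. Fosl2 in the whole library, neutrophil-like and B-cell-like cells had positive differences that missed the threshold (0.76, 0.52 and 0.49, edgeR adjusted p = 0.209, 0.167 and 0.373). With the mean class composition in each library, Fosl2 was called in the whole library.

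**Figure D1:**
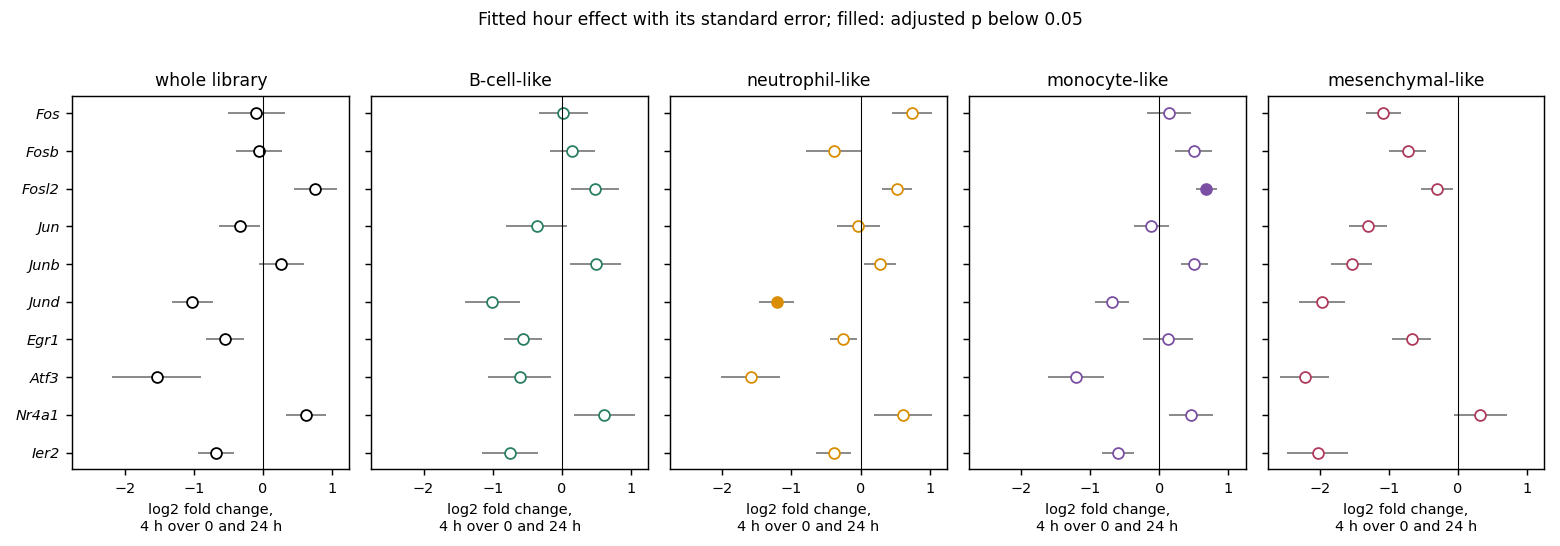
Fitted log2 difference of each member between the 4 h libraries and the other libraries in the 5 populations, with bars of 1 standard error and filled points for edgeR adjusted p below 0.05. Jund in neutrophil-like cells (-1.21) and Fosl2 in monocyte-like cells (0.68) were called, and the mesenchymal-like estimates reached -2.22 for Atf3 without a call.

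Jund had negative differences in all 5 populations: -1.02 in the whole library (edgeR adjusted p = 0.117), -1.003 in B-cell-like (0.121), -0.69 in monocyte-like (0.112) and -1.97 in mesenchymal-like cells (0.0655). DESeq2 called Jund lower in the whole library and in B-cell-like cells (-1.007 and DESeq2 adjusted p = 0.0339 in the latter). In the whole library it stood at 1545, 1477 and 1489 CPM in TO 2d 0h, TO 4d 24h and TOE 2d 24h, at 586 in TOE 4d 24h, and at 481 to 732 in the 4 h libraries. Thus TOE 4d 24h sat with the 4 h libraries and the other 3 stood above, and in such whole-library sums fewer cells of a type and less RNA per cell cannot be told apart. Without TOE 4d 24h, edgeR called Jund lower at 4 h in the whole library (-1.32, adjusted p = 0.0222), B-cell-like (-1.39, 0.00575) and monocyte-like cells (-0.93, 0.00480), and Ier2 in the whole library (-0.91, 0.0401) and B-cell-like cells (-1.17, 0.00274). Atf3 was then called lower by edgeR in B-cell-like (-0.999, adjusted p = 0.0330), neutrophil-like (-1.94, 0.00245) and monocyte-like cells (-1.41, 0.0306). These edgeR calls rested on that omission: with any of the other 7 libraries left out instead, edgeR called none of them (adjusted p from 0.0584 to 0.994). Without TOE 2d 24h the B-cell-like differences were -0.57 for Jund, -0.33 for Ier2 and 0.006 for Atf3. More genes at large were called lower by edgeR without TOE 4d 24h as well, 4.57% in the whole library, 13.8% in B-cell-like, 9.67% in neutrophil-like and 10.4% in monocyte-like cells. The same 3 libraries also held a higher mitochondrial share, with a median of 2.20 to 2.965% of a cell's UMIs against 1.03 to 1.69% in the other 5. They held the B-cell-like cluster led by LOC120095657 as well, where Jund stood at 2875 CPM, with 3813 to 4342 of its cells each against 39 to 210 in the other 5. The part of these in the Jund difference was not tested. The background in the whole library was 1.01% of 21927 genes called lower and 0.670% higher, and in B-cell-like cells 7.28% lower and 6.59% higher of 18746.

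In mesenchymal-like cells 8 of 10 members were lower at 4 h at an unadjusted p below 0.05, but edgeR called none of the 10 after adjustment. Called genes were rare in this small class, 0.0675% lower and 0.0375% higher of 13326, with 2673 genes at an unadjusted p below 0.05, and DESeq2 called 6 of the 10 members lower, and 3.43% of all genes. Atf3 stood at 500.4 CPM in TO 2d 4h, 457 in TO 4d 4h, 305 in TOE 2d 4h and 211 in TOE 4d 4h, against 1381 in TO 2d 0h, 1846 in TO 4d 24h, 1665 in TOE 2d 24h and 597 in TOE 4d 24h. The groups did not overlap, and the difference was -2.22 (standard error 0.35, edgeR adjusted p = 0.0597). Ier2 ran from 102.9 to 162 CPM at 4 h and from 253 to 852 otherwise (-2.03, adjusted p = 0.0853). Fos ran from 1048 to 1555 and from 2200 to 2454 (-1.08, adjusted p = 0.0911). Ranges were apart in the same direction for Jun, Junb and Jund, overlapped for Fosb and Egr1, and enclosed the 4 h values for Fosl2, whose estimate was -0.31. Nr4a1 had 80.3 to 103 CPM at 4 h and 18.4 to 101 otherwise. Within the cluster led by Ibsp (986 cells), the bone sialoprotein gene of osteoblasts, edgeR called 5 members, among them Atf3 (-2.60, adjusted p = 0.0226), Jund (-2.10, 0.0276) and Ier2 (-2.20, 0.0370), with 0.472% of 12085 genes called lower there.

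Other genes of the pathway were counted from lists by role, 71 genes in all. Where a gene of these lists was called for the hour it was higher at 4 h, with 1 exception. Crebbp, the CREB-binding coactivator, was called in the whole library (log2 difference 1.03, edgeR adjusted p = 0.0328), and of the 10 SRF, ternary complex and CREB regulators 4 were called higher in B-cell-like cells (Crebbp, Crem, Ep300 and Elk4), where 6.59% of all genes were. In monocyte-like cells Nr4a3, the sister receptor of Nr4a1 (1.60, adjusted p = 0.00476), and Nab2, a corepressor of EGR1 (1.36, 0.0370), were 2 of 7 tested in the EGR, NR4A and NAB list, Fosl1 (1.10, 0.0183) was 1 of 10 other AP-1 and small Maf factors, and Ier3, Ier5l and Dusp5 were 3 of 30 other immediate-early genes, beside the 5.50% of all genes called higher in that class. Maff (1.69, adjusted p = 0.0492) and Atf2 (0.61, 0.0264) rose in B-cell-like cells and Myc (0.98, 0.0260) in neutrophil-like cells, where 3.78% of all genes rose. Map2k1, a kinase of the ERK cascade, rose by 0.56 to 0.61 in B-cell-like, neutrophil-like and monocyte-like cells. The exception was Elk3 in neutrophil-like cells (-0.96, adjusted p = 0.0234). None of these lists had a call in mesenchymal-like cells. The median difference of the 10 members was -0.22 in the whole library and -1.20 in mesenchymal-like cells, against -0.02 and -0.01 for all genes tested, and 0.25 and -0.43 for the other immediate-early genes.

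The second comparison was TOE against TO in the same model. No member was called in any of the 5 populations, and edgeR called 0% of all genes in the whole library, and in the B-cell-like, neutrophil-like, monocyte-like and mesenchymal-like classes 0%, 0%, 0% and 0%. The edgeR unadjusted p was below 0.05 for 556 of 21927 genes, 587 of 18746, 644 of 14328, 1276 of 15624 and 289 of 13326 in the same order. DESeq2 called 0, 2, 6, 41 and 2 genes, and none of the members. Estimates for members ran from -0.89 for Atf3 in mesenchymal-like cells (standard error 0.35) to 0.77 for Fos in monocyte-like cells (0.32). Jund in neutrophil-like cells was -0.73 (standard error 0.25). Over the 6 libraries of the 3 matched pairs, with day and hour as a block, edgeR again called 0 members and 0 genes, with 1161, 1401, 1115, 1218 and 393 genes at an unadjusted p below 0.05 in the same order. These misses do not show that the arms were alike.

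Matched pairs of libraries gave the arms side by side at 3 times, with 1 library each, so the ratios of TOE to TO have intervals for counting error and no test of the treatment. At 2d 4h all 10 members were lower in TOE over the whole library, with ratios from 0.513 for Fosb (396 to 203 CPM) to 0.753 for Ier2 (169 to 127), and none reached a 2-fold difference. Of 18412 genes with at least 50 UMIs, 9.80% were at least 2-fold apart in either direction. All 10 were lower in B-cell-like cells as well, where Fosl2 passed 2-fold (9.76 to 4.72 CPM, ratio 0.484, 0.418 to 0.560) beside a background of 9.79%, with 4.27% of genes lower. Over the alternatives the number of members past 2-fold in these cells was 0 to 3. The Rpl37a-ps11-led cluster, which had the highest Fosl2 level of the B-cell-like clusters, was 20.7% of these cells in TO and 10.7% in TOE, and within clusters of at least 20 cells in both libraries Fosl2 was lower in 5, by ratios of 0.269 to 0.860. Of these 5, the LOC102551399-led cluster had an interval that included 1 (0.549 to 1.333). In the other 3 clusters Fosl2 had 1 to 7 UMIs in TO and 2 to 18 in TOE, and the intervals included 1. The other members also differed by cluster: in the LOC102551399-led cluster, the largest in both libraries (46.3% of B-cell-like cells in TO and 24.7% in TOE), Fos was higher in TOE (1.217, 1.112 to 1.331), as were Junb (1.115, 1.056 to 1.177) and Jun (1.031, 1.003 to 1.059). Fosb, Jund and Egr1 were lower there (0.922, 0.971 and 0.852), and the intervals of Fosl2, Atf3, Nr4a1 and Ier2 included 1. The Ms4a6b-led cluster was 3.91% of these cells in TO and 23.3% in TOE. Neutrophil-like cells had 3 members past 2-fold, with a background of 7.51% and 2.94% of genes lower: Fosb went from 500.5 to 179 CPM (ratio 0.358, interval 0.341 to 0.374), Fos from 509 to 251 (0.493, 0.474 to 0.514) and Nr4a1 from 96.1 to 45.6 (0.475, 0.431 to 0.522). All 3 were also lower within each of the 4 clusters that had at least 20 cells in both libraries. Within them the ratios were 0.262 to 0.671 for Fosb, 0.203 to 0.856 for Fos and 0.518 to 0.695 for Nr4a1, so that Fos was nearer to 1 in 3 of the 4 (0.700, 0.796 and 0.856) than in the class. In the LOC120095659-led cluster Nr4a1 had 7 UMIs in TO and 12 in TOE, and its interval included 1 (0.188 to 1.55). The Hcar2-led cluster, which had the highest Fosb level of the 5 neutrophil-like clusters, was 40.8% of neutrophil-like cells in TO and 17.0% in TOE. As classes, monocyte-like cells (background 6.23%) and mesenchymal-like cells (6.12%) had no member past 2-fold, and the Atf3 ratio of the latter was 0.610 (0.538 to 0.691). The Mnda-led cluster was 21.5% of monocyte-like cells in TO and 47.35% in TOE. Within it Fosb (0.427, 0.404 to 0.451) and Atf3 (0.489, 0.449 to 0.533) were lower by more than 2-fold. In the LOC120100774-led cluster their ratios were 0.531 and 0.771.

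At 4d 4h, after the second session, whole-library ratios ran from 0.742 for Jun to 1.15 for Nr4a1, with a background of 4.71%, and B-cell-like ratios from 0.872 to 1.19, with 2.12%. Fosb in neutrophil-like cells was again lower, 609 against 259 CPM (ratio 0.425, interval 0.409 to 0.441, background 2.47%, with 1.58% of genes lower), and lower in each of the same 4 clusters (0.510 to 0.890). No member passed 2-fold in monocyte-like cells (background 4.11%). In mesenchymal-like cells 2 members did, against 0 at 2d 4h, but with a mean over cells 1 member did at each time. In these cells at 4d 4h, 7.37% of genes passed in either direction and 3.95% on the lower side. Egr1 went from 881 to 409.7 CPM (ratio 0.465, 0.442 to 0.490) and Atf3 from 457 to 211 (0.462, 0.430 to 0.495). The TO library had 70.4% of these cells in the Igf1-led cluster and TOE 63.2% in the Ibsp-led cluster. Within the Ibsp-led cluster the ratio of Atf3 was 1.006 (0.841 to 1.209), and within the Igf1-led cluster it was 0.487 (0.436 to 0.543). Egr1 was lower in both (0.466 and 0.673).

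At 4d 24h the arms were furthest apart for genes at large, and the TOE library of this pair is the one that stood apart in composition. Over the whole library 22.9% of genes were at least 2-fold apart, and 6.93% were lower by that much. Jund (1477 to 586 CPM, ratio 0.397) and Atf3 (187 to 74.3, 0.396) were among the latter, while Egr1 was higher (160.1 to 257, ratio 1.61, 1.58 to 1.64). B-cell-like cells (background 22.6%, with 6.51% of genes lower) had 5 members lower by 2-fold or more: Ier2 (292 to 75.2 CPM, ratio 0.258), Nr4a1 (119 to 32.1, 0.270), Atf3 (50.5 to 13.8, 0.273), Jund (1748 to 606, 0.347) and Jun (801 to 356, 0.444). The B-cell-like cells of TO lay mostly in the LOC120095657-led cluster (48.0%) and those of TOE in the Ms4a6b-led cluster (51.6%). Within the 11 clusters of at least 20 cells in both libraries, Jund and Ier2 had ratios below 1 in each, Jund of 0.216 to 0.961 and Ier2 of 0.306 to 0.966. The intervals included 1 for both in the Rpl37a-ps11-led cluster, and for Ier2 also in the LOC120095657-led and RT1-Da-led clusters. Jun was lower in 8 and higher in 3 of the 11 clusters (0.189 to 2.40), Atf3 lower in 9 and higher in 2 (0.154 to 1.53), and Nr4a1 lower in 8 and higher in 3 (0.342 to 1.38). Neutrophil-like cells (background 19.4%, with 8.02% of genes lower) had Jund (1849 to 634 CPM, 0.343) and Atf3 (155 to 40.8, 0.264) past 2-fold. Jund was lower in each of the 4 clusters with at least 20 cells in both libraries (0.371 to 0.540). Atf3 was lower in 3 of them (0.299 to 0.440), and in the Hcar2-led cluster, which had its highest level of the 4, the ratio was 1.045 (0.923 to 1.181). That cluster was 58.0% of neutrophil-like cells in TO and 7.13% in TOE, and the LOC120095659-led cluster 4.47% and 41.9%. In the Hcar2-led cluster Jun (3.79), Egr1 (3.55), Fos (2.64), Nr4a1 (2.06) and Junb (2.02) were higher in TOE. In the LOC120095659-led cluster the same members were lower (0.364 to 0.576). Their ratios were 0.662 to 2.95 in the RatNP-3b-led cluster, where Egr1 was highest, and 0.439 to 0.965 in the Ngp-led cluster. Mesenchymal-like cells (background 13.6%, with 3.17% of genes lower) had all 10 members lower and 4 past 2-fold (4 to 8 over the alternatives): Nr4a1 (271 UMIs in TO and 38 in TOE, ratio 0.218, 0.151 to 0.307), Ier2 (852 to 253 CPM, 0.297), Atf3 (1846 to 597, 0.324) and Jund (1522 to 585, 0.384). Fos there was 2453 against 2200 CPM, a ratio of 0.897 (0.865 to 0.930).

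**Figure D2:**
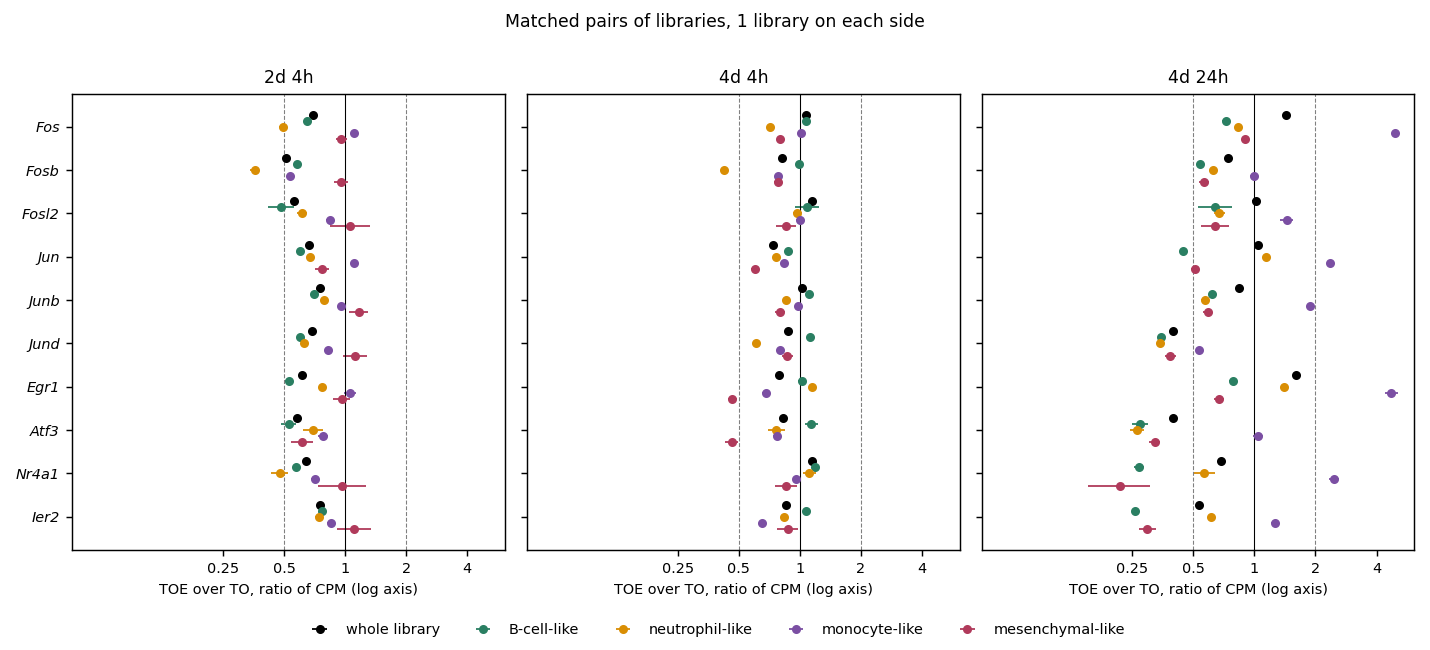
Ratio of TOE to TO for each member in the 3 matched pairs and 5 populations (log axis), with exact 95% intervals for counting error and lines at 0.5 and 2. Most ratios lay below 1, down to 0.218 for Nr4a1 in mesenchymal-like cells at 4d 24h, and Fos and Egr1 in monocyte-like cells at 4d 24h lay at 4.92 and 4.73.

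As a class, monocyte-like cells at 4d 24h went the other way for 4 members. There 17.9% of genes were at least 2-fold apart, and 11.6% of genes were at least 2-fold higher in TOE. Fos stood at 312 CPM in TO and 1534 in TOE (ratio 4.92, interval 4.77 to 5.07), Egr1 at 57.2 and 270.3 (4.73, 4.40 to 5.09), Nr4a1 at 119 and 295 (2.47, 2.34 to 2.61) and Jun at 381 and 900.2 (2.37, 2.29 to 2.44). The TOE value of Fos was the highest of the 8 libraries in this class, and the TO value the lowest. The class was made of different cells in the pair: 81.1% of the TO cells lay in the Cd14-led cluster, where Fos was low, and 96.9% of the TOE cells in the Mnda-led cluster, where it was high. Within the Mnda-led cluster, with 155 TO and 680 TOE cells, the ratio was 0.992 for Fos (0.954 to 1.03), 1.03 for Nr4a1 (0.942 to 1.13), 0.621 for Jun (0.595 to 0.648) and 1.51 for Egr1 (1.35 to 1.70). Inside the cluster the intervals of Fos and Nr4a1 thus included 1, Jun was lower in TOE, and Egr1 was higher. The summed level of 5 heat-shock genes, known to rise with cell stress, was 3224 CPM in TO and 8028 in TOE monocyte-like cells, and 7437 and 8039 within the Mnda-led cluster. Hspa1b, Hspa1a and Bag3 were among the 10 leading genes of the Mnda-led cluster at Leiden resolutions 0.5 and 2. The class values therefore cannot be read apart from the cluster shares.

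Among the other immediate-early genes at 4d 24h, of 30 measured in the whole library, 16 were at least 2-fold lower in TOE and none higher, where 6.93% of all genes were lower, among them Ier5l (ratio 0.221), Klf4 (0.232), Ier5 (0.270) and Nfkbia (0.280). The counts lower were 19 of 29 in B-cell-like, 20 of 28 in neutrophil-like, 10 of 29 in monocyte-like and 16 of 30 in mesenchymal-like cells, with 0 higher in each. The shares of all genes lower in these classes were 6.51%, 8.02%, 6.31% and 3.17%. This list was chosen with earlier results of these data known, so its counts beside these shares are descriptions and no test. The cluster shares inside the classes also differed between the libraries of this pair, as given above. At 4d 4h the counts lower were 0 of 30 in the whole library, 0 of 29 in B-cell-like, 0 of 29 in neutrophil-like, 1 of 29 in monocyte-like and 1 of 30 in mesenchymal-like cells, where 2.97%, 0.682%, 1.58%, 1.69% and 3.95% of all genes were lower. At 2d 4h they were 3 of 30, 2 of 28, 3 of 29, 1 of 29 and 0 of 29 in the same order, beside 5.12%, 4.27%, 2.94%, 2.11% and 3.86%. The only gene of the list at least 2-fold higher in TOE at either time was Dusp6, an ERK phosphatase, in mesenchymal-like cells at 2d 4h (46 UMIs in TO and 87 in TOE, ratio 2.25). Among MAP kinases, which act upstream of AP-1, Map2k6 was the only gene of 13 past 2-fold over the whole library at 4d 24h, and it was higher in TOE (ratio 3.06), as were 15.9% of all genes.

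Across the 91 sums of a class in a library, the members formed more than a single pattern. Log levels of Fosb and Junb had a Pearson r of 0.82, Fos and Fosb 0.81 and Fos and Junb 0.80. Jun was nearer to Egr1 (0.70) and Ier2 (0.68) than to Fos (0.37). Jund had an r of -0.03 with Fos and -0.14 with Fosl2. Among genes other than the members, of 14774 compared, those most like Fos were Map7d1 (0.85), Zfp36 (0.83), which promotes decay of AU-rich mRNAs, and Septin9 (0.83). For Junb they were Csrnp1 (0.85), Zfp36 (0.85) and Bhlhe40 (0.82), for Jun Lgals9, Itm2b and Dstn (0.67 each), and for Egr1 Ckap4, LOC102553183 and Rhob (0.74, 0.74 and 0.73). These are descriptions over points that share libraries, depth and dissociation.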

How the data were processed

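Droplet-based 3′ single-cell RNA libraries of 8 conditions were used, 1 library each. The authors made the deposited matrices of raw UMI counts per gene and barcode with Cell Ranger 9.0.0, and the submitters' processing notes name the builds mRatBN7.2 and GRCh38 with no role and also Seurat and R 4.0.3. No normalization had been applied. Free RNA had not been removed as far as the sources say, and the aligned strand and intron settings were not given in the sources used here.

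Of 116711 barcodes, 115442 had 200 genes or more and a mitochondrial share of no more than 20%, and of these the cells with a simulated-doublet score above 0.25 were removed. The cells were clustered over 2000 variable genes, 30 components and 15 neighbours (Leiden, resolution 1). The members and the listed pathway genes were left out of the variable genes. Clusters were named from marker lists by the markers raised over the median cluster, a reference chosen after the clusters had been seen. The members and lists were chosen with earlier results of these data known.

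UMIs were summed per library and class, scaled to CPM, and fitted with edgeR 4.0.16 in R 4.3.3 (TMM, filterByExpr, quasi-likelihood, Benjamini-Hochberg over all genes tested, threshold 0.05). DESeq2 1.42.0 was the second tool. Scripts ran in Python 3.11.15 with SciPy 1.17.1, and the fits were tested on simulated data. Ratios within a pair have exact conditional intervals and shares exact binomial intervals (Clopper-Pearson). Genes were named by rule: all 10 members, from each other list up to 4 genes per effect or pair (those called, or past 2-fold with at least 50 UMIs), and for Fos, Jun, Junb and Egr1 the 3 genes most alike. The correlations given for Jund and Fosl2 were chosen after their values were seen. Alternatives were other size factors, no low-count filter, DESeq2, hour as 3 levels, other cell filters, doublets kept, other cluster resolutions, other denominators, matched pairs as a block and each library left out.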

Additional observations from a re-analysis of the deposited data

Results flagged for a closer look

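A pair of members went in opposite directions between classes at 4d 24h. The ratio of TOE to TO for Jun was 0.444 in B-cell-like and 2.37 in monocyte-like cells. Nr4a1 had a ratio of 0.270 in B-cell-like, 0.218 in mesenchymal-like and 2.47 in monocyte-like cells. Each class rested on 1 library per arm, so the difference between classes was not tested. The monocyte-like cells of the 2 libraries lay in different clusters, and within the Mnda-led cluster the ratios were 0.621 for Jun and 1.03 for Nr4a1. In B-cell-like cells Jun was lower within 8 and higher within 3 of 11 clusters, and Nr4a1 likewise in 8 and 3.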

How the results depend on the processing

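Each condition had 1 library, so pairs carry counting error only and the model rests on 4 residual degrees of freedom. Mesenchymal-like cells numbered 62 to 511 per library. Replicate numbers pair no libraries, since each condition had 1. Day and hour as a block over the 3 matched pairs, an alternative chosen after seeing the data that leaves 2 residual degrees of freedom, called 0 members. For the arm, 0 of 86 alternatives called a member. For the hour, the number of members called in the whole library was 1 with DESeq2 (Jund), 2 with the mean class composition (Fosl2 and Atf3) and 0 to 2 with each library left out. It was 1 with DESeq2 (Jund) and 0 to 3 with a library left out in the B-cell-like class. For neutrophil-like cells it was 2 with no low-count filter, 2 with DESeq2 and 0 to 2 with a library left out. In monocyte-like cells it was 3 with DESeq2, 0 with the hour as 3 levels and 0 to 3 with a library left out. In mesenchymal-like cells it was 4 with no filter, 6 with DESeq2 and 5 in the Ibsp-led cluster alone. Of 90 alternative counts for pairs, 7 moved by more than 1.5 times: with TMM scaling the count became 1 in the whole library and 3 in B-cell-like cells at 2d 4h, and 7 in mesenchymal-like cells at 4d 24h. With a mean over cells it became 0 in B-cell-like and 1 in mesenchymal-like cells at 2d 4h, 1 in mesenchymal-like cells at 4d 4h and 8 in those at 4d 24h. Of 140 alternative values of the 24 ratios past 2-fold, 1 crossed 1: Atf3 in mesenchymal-like cells at 4d 4h, at 1.006 in the Ibsp-led cluster alone, where the interval (0.841 to 1.209) included 1. That alternative was run for mesenchymal-like cells only. Inside clusters of at least 20 cells in both libraries, also compared after seeing the data, 8 of the 22 class ratios past 2-fold lay on the other side of 1 in at least 1 cluster, in 3 of them with an interval that left out 1, and 15 of 99 cluster values lay on the other side. The alternatives for the Il23a-led, Ibsp-led, Adgre4-led and Sync-led clusters were chosen after seeing the data. The cause of these changes was not tested.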
